A study of Mus musculus with 2 samples.

Results

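Transcripts annotated as nonsense_mediated_decay (NMD) were examined in the well-expressed genes of mouse spleen neutrophils. A gene was taken where it has at least 1 NMD and 1 protein_coding transcript and a gene-level abundance of at least 50 TPM (a read-based abundance scaled for transcript length and library depth) in both libraries. This gave 668 NMD transcripts of 384 genes, out of 7186 NMD transcripts among the 141864 transcripts of the tables. Of 4491 genes with both kinds of transcript, 3002 reached 1 TPM in both libraries, and these served as the background. Genes were thus selected on their total level, which includes the NMD transcripts' own TPM, so the selection is not independent of the NMD share. Without their NMD transcripts, 323 of the 384 genes still had 50 TPM in both libraries and 61 did not. Just inside the threshold lay Rpl14 (50.22 and 76.33 TPM in replicates 1 and 2) and Myo5a (54.01 and 50.23 TPM). Just outside lay Elk4 (49.70 and 50.71 TPM) and Abr (50.83 and 49.86 TPM).

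The series holds total RNA-seq of primary neutrophils from the spleen of an adult male B6CASTF1/J mouse aged 65 days, bred from a C57BL/6 female and a CAST/EiJ male. There is 1 group of 2 libraries, each from 300 ng of RNA with ERCC spike-ins, and no treatment, genotype or time to compare. The labels number the libraries as biological replicates but give both the same donor identifier, so their spread may be in part technical. The libraries held 18387963 and 18090108 expected counts over genes. Defining neutrophil markers summed to 38168 and 75853 TPM, against 108 and 145 TPM for monocyte or macrophage markers, 61.8 and 65.0 TPM for endothelium or stroma, 45.2 and 113.8 TPM for erythroid cells, 13.9 and 12.01 TPM for platelets, 4.49 and 17.4 TPM for B cells, and under 1 TPM for T and NK cells. Each library has a transcript table with RSEM's column layout and one with kallisto's, so each gene has 4 values of its NMD share, which is the summed TPM of its NMD transcripts as a percentage of the summed TPM of all its transcripts. With 2 libraries of 1 group no test was made. Values are given in the order RSEM layout replicates 1 and 2, then kallisto layout replicates 1 and 2.

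Nonsense-mediated decay is the cytoplasmic pathway that degrades mRNAs whose stop codon lies well upstream of an exon junction. The exon junction complex left by splicing marks such a stop as premature, and the helicase UPF1 with its partners UPF2 and UPF3 and the SMG proteins starts the decay. Many genes of splicing regulators carry a "poison exon", a cassette exon with an in-frame stop whose inclusion sends the mRNA to decay and which the encoded protein can itself promote. The annotation label says what a transcript's structure predicts. A TPM is a relative abundance in the total RNA sampled, and it does not measure decay.

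The stop codons that define these transcripts are shown here for a choice of leading NMD transcripts whose stop lies in sequence outside the coding exons, since they are what makes the transcript a predicted decay target. The leading NMD transcript is the one with the highest mean share in a gene. Each line gives the last coding bases of the exon up to the stop codon, 5′ to 3′, with the stop in capitals, read from the GENCODE M21 transcript sequences (mm10). The first 4 belong to SR-type splicing regulators, of which Srsf3 and Srsf7 were added after their values were seen.
Tra2a-202 (chr6:49252965-49252994, minus strand): aaaaaattgaacagaagattggtcagaTAG
Tra2b-206 (chr16:22259181-22259210, minus strand): aatgagtatttgaagctcaggaataagTGA
Srsf3-201 (chr17:29039458-29039487, plus strand): accatcatgtctcttctcaccaccctcTGA
Srsf7-203 (chr17:80205054-80205081, minus strand): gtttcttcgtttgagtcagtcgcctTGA
Rbm39-224 (chr2:156177769-156177798, minus strand): tggctgctagcatggccacttggggctTAG
Ddx5-208 (chr11:106783954-106783983, minus strand): accgatgtggcctccagagggctaggtTAG
Sat1-207 (chrX:155215217-155215230, minus strand): gttacagtctcTAG
Mxd1-203 (chr6:86658106-86658133, minus strand): gctttgttctcaacacaaaaccagtTGA
Ostf1-205 (chr19:18598954-18598983, minus strand): gagcttcataaactactcctgagccatTAG
Tkt-205 (chr14:30557646-30557667, plus strand): gtgtagtgtctttcccccaTGA

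In 9 of these 10 transcripts the stop lies in a separate internal exon, which reflects the choice of lines. Rpl27a-205, Hnrnpdl-205 and Fermt3-203, not printed, have the stop in an extended coding exon. Among leading NMD transcripts of genes with a share of at least 10% in all 4 values, 18 had an extended exon and 17 a separate internal exon. The stop exon is 306 nt long in Tra2a, 276 nt in Tra2b, 456 nt in Srsf3, 460 nt in Srsf7, 155 nt in Rbm39, 110 nt in Sat1, 77 nt in Ostf1, 65 nt in Mxd1 and 43 nt in Tkt. In Ddx5 it is a coding exon extended to 1550 nt, so that intron sequence is read through to the stop. The sequences of Sat1, Srsf7, Mxd1 and Tkt are shorter than 30 bases because the exon begins there. Over all 668 transcripts the stop was TGA in 397 (59.4%), TAA in 147 (22.0%) and TAG in 124 (18.6%).

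The label fitted the structure in nearly all cases. In 664 of 668 NMD transcripts (99.4%) the stop lay more than 50 nt upstream of the last exon junction, with a median distance of 301.5 nt (quartiles 138 and 617 nt). Among 1144 protein_coding transcripts of the same genes with an annotated stop, 8 (0.699%) had such a stop. The 4 NMD transcripts at or under 50 nt belonged to Srrm1, Clk4, Ubl5 and Atp11b. The annotation assigns the label largely by this distance, so the separation describes the annotation and not the libraries.

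**Figure D1:**
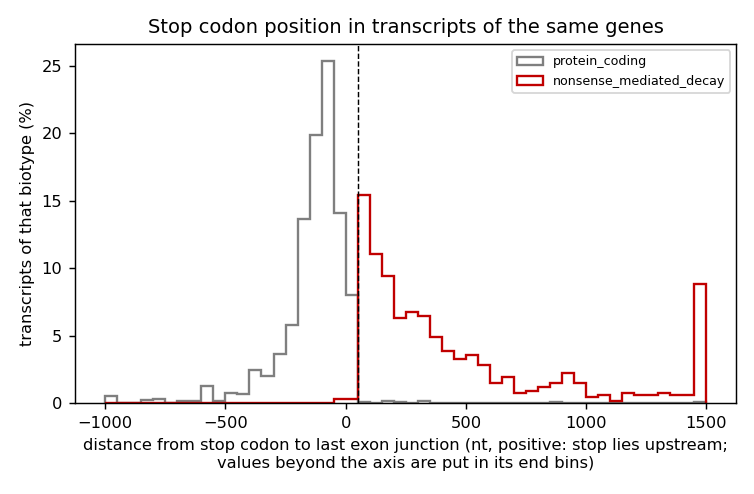
Distance from the stop codon to the last exon junction in nt (positive where the stop lies upstream) for the 668 NMD transcripts and the 1144 protein_coding transcripts of the same 384 genes, as a percentage of each biotype in bins of 50 nt; the dashed line marks 50 nt. Of the NMD transcripts 99.4% lie right of the line, and of the coding transcripts 0.699%.

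By where the stop lies, 406 NMD transcripts (60.8%) had it inside sequence that a coding transcript also uses, as when exon skipping or another splice site shifts the frame. In 212 (31.7%) the stop lay wholly or in part outside the coding transcripts' exons. Of these, 126 had a separate internal exon with a median of 111 nt, 84 an extended coding exon with a median of 265 nt, and 2 a separate first exon. In the remaining 50 (7.49%) the stop was the stop codon of a coding transcript, followed by a further splice junction. NMD transcripts were shorter than coding ones, with medians of 912.5 and 1685 nt, and 225 of them were tagged as incomplete at an end.

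NMD transcripts made up a modest part of what these genes express. Summed over the 384 genes, they took 13.8% and 13.1% of TPM in the RSEM-layout tables (13.5 ± 0.476%, SD, n = 2) and 13.8% in both kallisto-layout tables (13.8 ± 0.0248%, SD, n = 2). Protein_coding transcripts took 56.3% and 60.8%, then 53.7% and 57.8%. Retained-intron transcripts of the same genes took more than the NMD transcripts in every table, with 24.4% and 21.2%, then 26.3% and 22.3%. Of the summed NMD TPM, the 10 genes with the most NMD TPM held 41.1% and 41.7%, and Ltf alone 21.8% and 18.9%. Without Ltf, the lactoferrin gene, the pooled RSEM-layout share was 11.6%.

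The share differed widely from gene to gene. The median gene had an NMD share of 6.11% and 5.47% in the RSEM layout and of 9.95% and 8.97% in the kallisto layout, with quartiles of 1.44% and 16.3% in the first of these tables. Over the 3002 background genes the medians were 6.61%, 6.09%, 9.98% and 9.64%, beside those of the well-expressed genes. Of the 384 genes, 10 had a share of 0 in all 4 values and 30 stayed under 1% in all 4. At the other end, 49 reached 20% and 5 reached 50% in all 4 values. Of the 3002 background genes, which include the 384, 202 were at 0 and 267 under 1% in all 4 values. In the same background, 373 reached 20% and 38 reached 50% in all 4, so nothing particular to well-expressed genes is read from these counts.

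**Figure D2:**
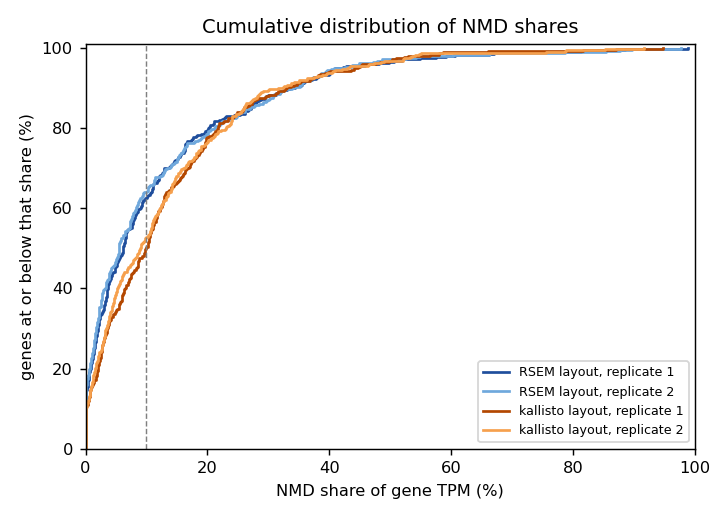
Cumulative percentage of the 384 genes (vertical axis) at or below each NMD share of gene TPM in percent (horizontal axis), with 1 line per table; the dashed line marks 10%. The kallisto-layout lines run to the right of the RSEM-layout lines below about 20%, with medians of 9.95% and 8.97% against 6.11% and 5.47%.

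A share of at least 10% in all 4 values was found in 109 of 384 genes (28.4%). Among the background genes it was found in 25.2%. The count depends on the selection: of the 61 genes that reached 50 TPM only with their NMD transcripts, 42 are among the 109, Lars2 and Ndufa3 included. Of the 323 genes at 50 TPM without NMD transcripts, 67 (20.7%) reached 10% in all 4 values, beside 704 of the 2919 background genes (24.1%) at 1 TPM by the same measure. Well-expressed genes thus lay slightly above the background by total level and slightly below it by the level of the other transcripts, and nothing is read from either difference. Across the 3002 genes, Spearman's rho between gene level and share was -0.05 in both layouts, given as a description over genes that share their libraries. In 25 genes the NMD transcripts had more TPM than the coding transcripts in all 4 values, among them Clk1, Srsf3, Tra2b, Hnrnpu, Ccnl1, Rsrc2, Eif4a2, Tkt, Clec4e and Prdx6. In the 109 genes, the stop of the leading NMD transcript lay inside coding exons in 62, outside them in 35 (18 extended exons and 17 separate internal exons) and at a coding transcript's stop in 12.

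The highest mean share belonged to Lars2 (chr9:123366927-123462666, plus strand), which encodes the mitochondrial leucyl-tRNA synthetase. Its shares were 98.9% and 97.7%, then 87.0% and 85.3%, at a gene level of 218 and 151 TPM. A single 3756-nt transcript, Lars2-209, carried this, at 215 and 147 TPM in the RSEM layout. Both values lie above its posterior intervals, 205 to 212 and 138 to 145 TPM. Only 6 exon bases of the gene are used by its NMD transcript alone. The stop of Lars2-209 lies 928 nt before the last junction. Ndufa3, a subunit of respiratory complex I, followed with 88.5%, 85.3%, 94.8% and 91.6%, carried by the 343-nt Ndufa3-204. No 31-base stretch (31-mer) of Ndufa3-204 is particular to the gene's NMD transcripts, so its reads can also come from transcripts of other biotypes of Ndufa3. Ppia, the cyclophilin A gene, had 83.9%, 87.7%, 81.7% and 78.8%, and 64.2% of the 31-mers of its NMD transcript also occur in other genes, most of them in the annotated gene Gm10123.

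Among the 12 highest, Ostf1, an SH3-domain protein gene, varied little between layouts. Its shares were 59.1% and 54.2%, then 52.9% and 54.0%, all from Ostf1-205, whose 77-nt stop exon is printed above. Ostf1-205 had 66.7 and 95.1 TPM, with posterior intervals of 60.8 to 68.7 and 86.5 to 96.8 TPM in the RSEM-layout tables. Ppp1cb, a catalytic subunit of protein phosphatase 1, had shares of 57.6%, 48.6%, 58.0% and 55.0%. As shares of counts instead of TPM these were 24.9%, 19.3%, 25.5% and 20.8%. Its leading NMD transcript, Ppp1cb-205, is tagged incomplete. Mboat7, a lysophospholipid acyltransferase, had 52.0%, 60.4%, 45.2% and 49.1%. Pde2a, a cyclic nucleotide phosphodiesterase, had 46.2%, 47.8%, 56.6% and 53.6%, but 96.4% of the 31-mers of its leading NMD transcript also occur in the annotated gene Gm45837.

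**Figure D3:**
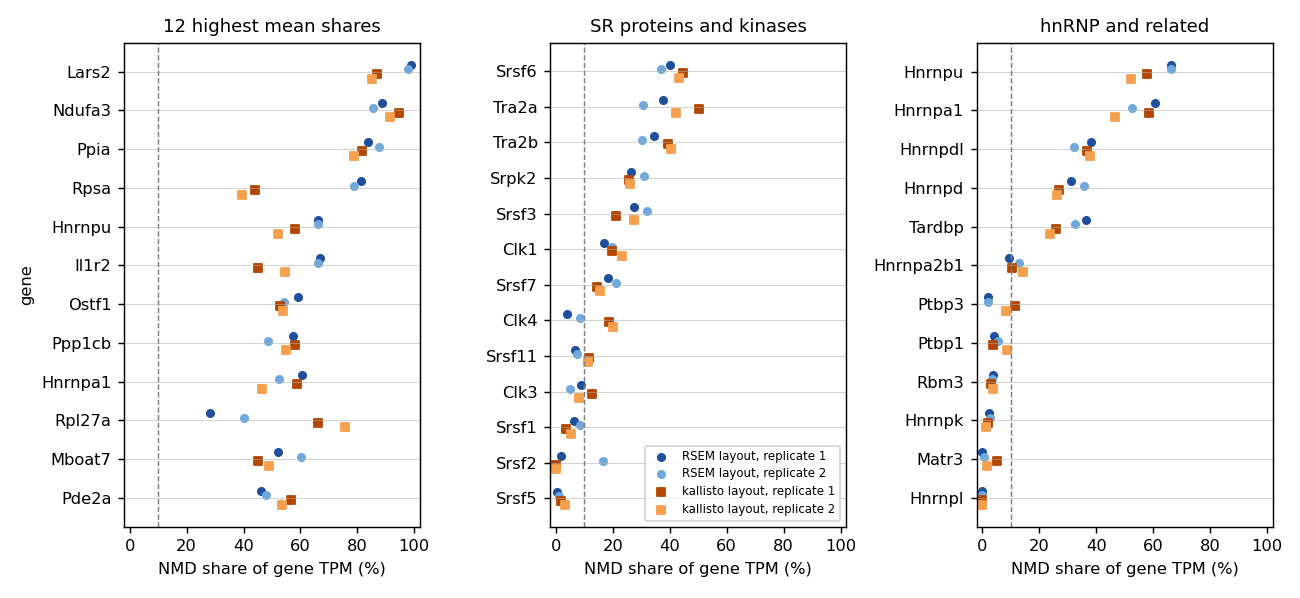
NMD share of gene TPM in percent (horizontal axis) for the 12 genes of the highest mean share, the 13 SR protein and SR kinase genes and the 12 hnRNP and related genes, with 1 point per table; the dashed line marks 10%. Lars2, Ndufa3 and Ppia lie above 75% in all 4 values, 7 of the 13 SR genes lie right of the line in all 4, and Hnrnpl is at 0 in all 4.

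SR proteins are splicing factors with arginine- and serine-rich domains, and the SRPK and CLK kinases phosphorylate those domains. Of 13 such genes among the 384, 7 reached 10% in all 4 values (53.8%, beside 28.4% of all 384), and the list's median share was 18.1% in the RSEM layout and 19.4% in the kallisto layout. Srsf6 had shares of 40.1%, 36.9%, 44.6% and 43.2%. Tra2a, a splicing activator, had 37.8%, 30.7%, 50.3% and 42.0% from the transcript with the 306-nt exon, and its paralog Tra2b had 34.4%, 30.1%, 39.2% and 40.6%. Of the 31-mers of the leading NMD transcript, 40.9% also occur in other genes for Tra2b and none for Tra2a and Srsf6. In each of these 3 genes both layouts and both libraries gave shares of at least 30%.

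The kinase Srpk2 had shares of 26.2%, 30.9%, 25.8% and 26.1%, and Srsf3, an SR protein of small size, had 27.3%, 31.9%, 21.2% and 27.2%. For Srsf3-201, 36.8% of the 31-mers also occur in other genes. Clk1 was the most abundant gene of this group, at 522 and 623 TPM, and had shares of 16.7%, 19.5%, 19.8% and 23.2%. Its Clk1-211 transcript accounted for 83.5 and 121.7 TPM. Srsf7 had 18.2%, 21.2%, 14.5% and 15.5%.

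The other 6 SR genes fell below 10% in at least 1 value. Clk4, with 3.98%, 8.25%, 18.7% and 20.1%, was low in the RSEM layout and high in the kallisto layout. Srsf11 showed the same split on a smaller scale, with 6.71%, 7.38%, 11.5% and 11.3%. Clk3 lay at 8.69%, 4.99%, 12.6% and 8.17%. Srsf1 stayed between 3.45% and 8.32%, and Srsf5, at 367 and 422 TPM of gene level, between 0.316% and 3.13%. Srsf2 had 1.67% and 16.6% in the RSEM layout and 0.000438% and 0.000147% in the kallisto layout.

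The hnRNP proteins bind nascent transcripts and often counter SR proteins in splice site choice. Of 12 such genes, 5 reached 10% in all 4 values (41.7%, beside 28.4% of all 384), and the list's median share was 8.01% in the RSEM layout and 11.2% in the kallisto layout. Hnrnpu, a scaffold-attachment factor, had 66.2% and 66.3%, then 58.0% and 52.3%, led by Hnrnpu-206, in which the stop lies 183 nt before the last junction. Hnrnpa1 had 60.7%, 52.6%, 58.7% and 46.6%, and 74.5% of the 31-mers of its leading NMD transcript also occur in other genes, nearly all in Gm10052. Hnrnpdl had 38.1%, 32.1%, 36.8% and 38.0%, and its leading transcript has a coding exon extended to 322 nt.

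Hnrnpd, which encodes the AU-rich element binding protein AUF1, had 31.2%, 35.6%, 26.8% and 26.3%. Tardbp, which encodes TDP-43, had 36.6%, 32.6%, 26.02% and 23.8%, spread over 10 NMD transcripts, the most of any of the 384 genes. Hnrnpa2b1 straddled the line with 9.38%, 12.9%, 10.5% and 14.2%. Ptbp1 and Ptbp3, Rbm3, Hnrnpk, Matr3 and Hnrnpl were lower. Hnrnpk had at most 2.57% at 253 and 367 TPM of gene level, and the NMD transcript of Hnrnpl was listed at 0 in all 4 values at 163 and 153 TPM of gene level.

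Of 15 spliceosome and splicing regulator genes, 3 reached 10% in all 4 values (20%, beside 28.4% of all 384). Ddx5, an RNA helicase, had 38.6%, 33.9%, 37.1% and 29.2% and was among the 5 genes with the most NMD TPM, at 217 and 267 TPM in the RSEM layout. Of the 31-mers of Ddx5-208, 33.4% also occur in other genes. Rbm39, a splicing coactivator, had 14.2% and 16.02%, then 27.9% and 28.8%, over 8 NMD transcripts, so the layouts differed more than the libraries. Luc7l2, a U1 snRNP-associated factor, had 15.03%, 10.02%, 19.7% and 17.5%. Son, with 19.95%, 14.1%, 9.92% and 9.61%, missed the line by less than 1 point in the kallisto layout. The median of the list was 5.64% and 9.76%, near that of all 384 genes.

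None of the 27 listed NMD and exon junction complex genes is among the 384, because 5 of them have both kinds of transcript and none of those 5 reached 50 TPM in both libraries. The means over both libraries of these 27 genes ranged from 3.02 TPM for Magohb to 287 TPM for Pabpc1. Upf3a and Upf3b were low, at 8.64 and 4.765 TPM. Upf1 had 18.9 ± 2.72 TPM (SD, n = 2) and Upf2 18.5 ± 1.74 TPM, while the exon junction helicase Eif4a3 had 62.0 ± 8.07 TPM. Smg1, the kinase that phosphorylates UPF1, came closest to the threshold of those 5, at 42.8 ± 4.88 TPM. Its NMD share was 0% and 0.381% in the RSEM layout and 16.6% and 16.5% in the kallisto layout.

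Of 16 cytosolic ribosomal protein genes, 3 reached 10% in all 4 values (18.8%, beside 28.4% of all 384). Most of the others were low: the list's median share was 4.20% in the RSEM layout and 3.62% in the kallisto layout, and Rps12, Rpl9 and Rpl37a had at most 2.40%. Rpsa had 81.4% and 78.7%, then 44.1% and 39.5%, and 78.2% of the 31-mers of its leading NMD transcript also occur in other genes, chiefly the pseudogene Rpsa-ps10. Rpl27a had 28.2%, 40.2%, 66.1% and 75.5%, with 48.6% of these 31-mers also in Gm7536. The part of such processed copies in the shares was not tested, and the ribosomal values carry this uncertainty.

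Translation factors held 3 such genes among 5, with median shares of 14.5% in the RSEM layout and 13.2% in the kallisto layout. Eef1b2, an exchange factor of elongation factor 1, had 35.3%, 32.8%, 50.9% and 26.2%. Eif4a2, an initiation factor helicase, had 36.1% and 37.3%, then 11.8% and 14.7%. Eif5 had 16.1%, 12.9%, 23.3% and 21.01%, and no 31-mer of its leading NMD transcript is particular to the gene's NMD transcripts. Eif4a1, the paralog of Eif4a2, had 0.162% and 0% in the RSEM layout and 11.5% and 8.90% in the kallisto layout. Among 3 stress and polyamine genes, Sat1, the acetyltransferase that breaks down polyamines and whose mRNA is known to include a stop-bearing exon when polyamines are low, had 14.5%, 20.5%, 18.8% and 24.0% from the 110-nt exon printed above. Replicate 2 was higher in both layouts.

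Of 9 granule and effector genes, Ltf and Adam8 reached 10% in all 4 values (22.2%, beside 28.4% of all 384), while S100a6, Mpo and Anxa1 had at most 0.0596%, 0.579% and 2.64%. The median over the 9 genes was 5.38% in the RSEM layout and 4.70% in the kallisto layout. Ltf encodes lactoferrin, the iron-binding protein of the specific granules, and had by far the most NMD TPM, 1634 and 1692 in the RSEM layout, at a gene level of 3988 and 5481 TPM. Its shares were 41.0% and 30.9%, then 14.8% and 21.6%. The layouts gave this to different transcripts: Ltf-211, a 373-nt transcript tagged incomplete, had 1535 and 1074 TPM in the RSEM layout and was listed at 0 in both kallisto-layout tables, where Ltf-207 (643 nt) had 756 and 1646 TPM. Adam8, a membrane metalloproteinase, had 16.4%, 16.2%, 18.8% and 14.2% from the 343-nt Adam8-208.

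Of 8 surface receptor genes, 4 reached 10% in all 4 values (50%, beside 28.4% of all 384), with list medians of 14.9% in the RSEM layout and 14.3% in the kallisto layout. Il1r2, the decoy receptor for interleukin-1, had 67.0% and 66.2%, then 45.1% and 54.7%, from Il1r2-204 alone. This 1054-nt transcript had 313 and 321 TPM, with posterior intervals of 293 to 314 and 299 to 322 TPM, and 27 of its 31-mers are particular to it. Clec4e, the receptor Mincle, had 41.0%, 44.8%, 24.6% and 20.5%, and its neighbour Clec4d had 14.3%, 26.3%, 45.3% and 53.2%, so the 2 genes were ordered one way by the RSEM layout and the other way by the kallisto layout. The integrin subunit gene Itgb2 had 26.9%, 38.4%, 12.6% and 11.4%, and its partner Itgam 8.63%, 10.3%, 5.44% and 5.14%. Tyrobp, the adaptor DAP12, had at most 3.91% at 633 and 1025 TPM of gene level.

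Of 4 inflammatory signalling and transcription genes, 2 reached 10% in all 4 values (50%, beside 28.4% of all 384). Irf1, an interferon regulatory factor, had 17.4%, 22.3%, 17.0% and 22.3%, and Mxd1, an antagonist of Myc, had 10.98%, 12.7%, 21.7% and 23.7% from the 65-nt exon printed above. As shares of counts instead of TPM, Irf1 had 4.74%, 6.33%, 3.98% and 4.93%, and Mxd1 2.77%, 3.44%, 4.70% and 4.96%, all under 10%. Of 9 actin and motility genes, 1 reached 10% in all 4 values (11.1%, beside 28.4% of all 384): Fermt3, the integrin activator kindlin-3, had 16.3%, 11.2%, 17.8% and 12.1%. The rest of that list was low, with medians over the 9 genes of 0.0791% in the RSEM layout and 2.28% in the kallisto layout. Actg1, at 1219 and 1601 TPM of gene level, had at most 0.546%, and Pfn1 at most 0.147%.

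Of 10 energy metabolism genes, 3 reached 10% in all 4 values (30%, beside 28.4% of all 384). These were Gpi1 (32.1%, 27.8%, 26.5% and 30.2%), Mdh2 (27.2%, 27.1%, 19.9% and 13.5%) and Tkt (22.7%, 25.3%, 11.1% and 25.1%). They encode a glycolytic isomerase, a malate dehydrogenase and the transketolase of the pentose phosphate pathway. Of the 31-mers of Gpi1's leading NMD transcript, 54.1% also occur in Gm1840. Ldha and Pgk1, which act in glycolysis too, had at most 0.217% and 1.15%. Of 6 vesicle traffic genes, 1 reached 10% in all 4 values (16.7%, beside 28.4% of all 384). This was the small GTPase gene Arf4, with 67.9%, 54.9%, 29.6% and 36.3%, while Ap2m1 was at 0 in all 4. The single ubiquitin gene, Ube2d3, had at most 3.71%.

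The libraries agreed more closely than the layouts. Across the 384 genes the median absolute difference between libraries was 1.64 points in the RSEM layout and 2.15 points in the kallisto layout, with Pearson's r of 0.942 and 0.898. Between layouts it was 3.81 points in replicate 1 and 3.71 points in replicate 2, with r of 0.820 and 0.739. These r are across genes, which are not independent replicates. A difference over 10 points between libraries occurred in 19 and 28 genes, and between layouts in 74 and 81 genes. Both kallisto-layout values but neither RSEM-layout value reached 10% in 39 genes, and the reverse held in 10.

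**Figure D4:**
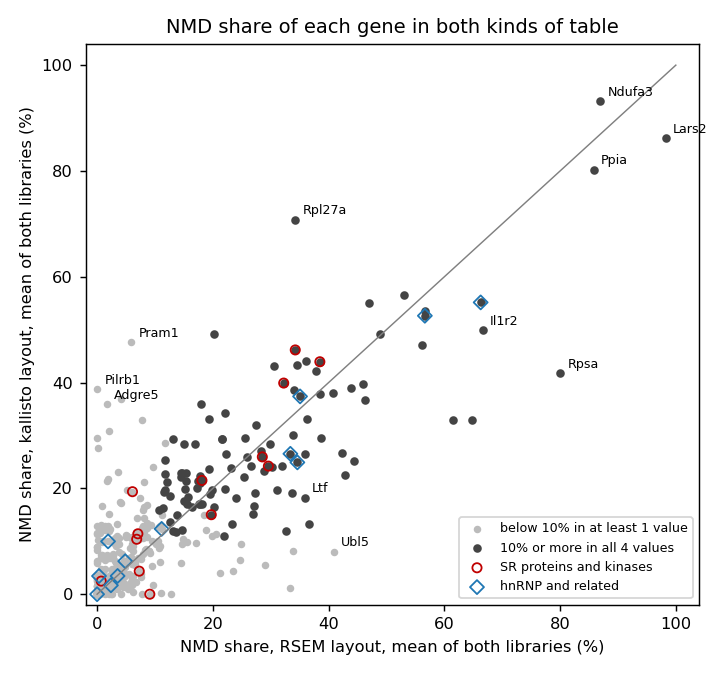
Mean NMD share of each of the 384 genes over both libraries in the RSEM layout (horizontal axis, percent) and in the kallisto layout (vertical axis, percent); dark points reached 10% in all 4 values, open circles mark SR genes and open diamonds hnRNP genes. Pram1, Pilrb1 and Adgre5 lie far above the line of equality, and Ubl5 and Rpsa far below it.

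Among genes where 1 layout alone gave at least 10%, the gap was widest for Pram1, an adaptor of myeloid cells, with 6.07% and 5.68%, then 16.6% and 78.6%. Of the 31-mers of its NMD transcript, 94.8% also occur in the annotated gene Gm20507. Pilrb1, an activating receptor gene, was listed at 0 in both RSEM-layout tables and had 34.2% and 43.4% in the kallisto layout, with 51.5% of these 31-mers in other genes, mainly Pilrb2. Adgre5, which encodes the adhesion receptor CD97, had 2.08% and 1.31%, then 36.8% and 35.0%, and its NMD transcript shares no 31-mer with another gene. Ubl5, a splicing-associated ubiquitin-like protein, went the other way, with 38.1% and 43.7%, then 9.77% and 6.22%. Rpl14 had 6.77% and 1.51%, then 32.9% and 40.9%.

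Single transcripts differed more than gene sums. Of the 668 NMD transcripts, 314 had at least 1 TPM in all 4 tables, 18 had at least 1 TPM in both RSEM-layout tables and 0 in both kallisto-layout tables, and 39 the reverse. In the 64 of 109 genes that have more than 1 NMD transcript, the leading one was the same in both layouts in 50 and another in 14. The RSEM-layout tables give a posterior interval for each transcript, of a level not given in the sources used here. Its upper bound was at the median 2.81 and 2.83 times the lower.

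The sequence particular to NMD transcripts is short. A typical NMD transcript had 30 31-mers found neither in its gene's transcripts of another biotype nor in another gene, and 58 transcripts had none. A single splice junction gives 30. Per gene the exon bases used by NMD transcripts alone had a median of 6, and 181 genes had none. Of the 120 genes with at least 100 such bases, 42 (35.0%) reached 10% in all 4 values, and of the 264 with fewer, 67 (25.4%). The median gap between layouts was 3.49 points in the former and 3.98 points in the latter.

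Between libraries, the difference held in both layouts for the genes named next. Ctsh, the protease cathepsin H, was higher in replicate 1, with 54.9% against 36.8%, then 47.7% against 31.6%. Anapc5, a subunit of the anaphase-promoting complex, was also higher there, with 40.2% against 22.0%, then 24.7% against 14.7%. R3hdm4 had 16.3% against 0.0886%, then 27.4% against 15.2%. Rgs2, a regulator of G protein signalling, was higher in replicate 2, with 33.1% against 43.8%, then 32.7% against 42.9%, and so was Rsrc2 with 29.4% against 39.5%, then 38.1% against 48.5%. No 31-mer of Rgs2-201, the NMD transcript of Rgs2, is particular to it. In all, 136 genes were higher in replicate 1 in both layouts and 89 in replicate 2.

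A share of TPM is not a share of reads, because TPM divides by transcript length. Of expected counts in the RSEM-layout tables, NMD transcripts held 8.79% and 8.18% of the 384 genes' total, against 13.8% and 13.1% of TPM. Among the 109 genes, the TPM share was at the median 1.08 times the count share, and over 2 times it in 21 genes. In the 15 genes whose leading NMD transcript is under 600 nt the median ratio was 3.59, and in the other 94 it was 1.04.

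**Figure D5:**
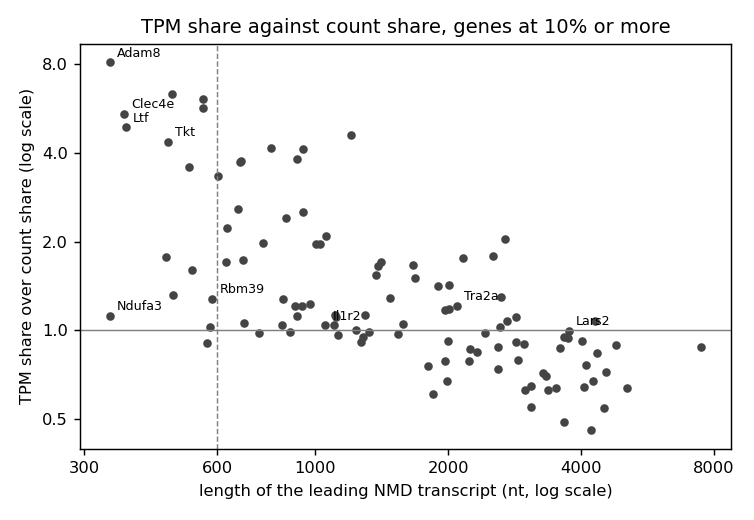
Ratio of the TPM share to the share of expected counts (vertical axis, log scale) against the length in nt of the leading NMD transcript (horizontal axis, log scale) for the 109 genes at 10% or more in all 4 values; the dashed line marks 600 nt. Adam8, Clec4e and Ltf, with leading NMD transcripts of 343, 370 and 373 nt, have ratios of 8.13, 5.43 and 4.90, while Il1r2 and Lars2 lie near 1.

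Several neutrophil genes with short NMD transcripts had large ratios. For Adam8, NMD transcripts took 2.06% of counts in replicate 1 (95% Wilson interval 1.88 to 2.26%) and 1.96% in replicate 2 (1.76 to 2.17%), beside RSEM-layout TPM shares of 16.4% and 16.2%. For Ltf the count shares were 7.62% (7.48 to 7.77%) and 7.04% (6.92 to 7.17%), and for Clec4e 7.41% (6.64 to 8.28%) and 8.39% (7.68 to 9.16%). For Il1r2 they were 63.8% (62.8 to 64.7%) and 64.1% (63.1 to 65.1%), near the TPM shares, and for Tra2a 31.04% (29.7 to 32.4%) and 25.5% (24.2 to 26.8%). These intervals cover counting error alone and not the error of assigning reads to transcripts. By counts, 98 genes reached 10% in all 4 values, and 88 of them are among the 109.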

How the data were processed

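Total RNA-seq of 2 libraries was taken from the authors' deposited tables. Per the files' accompanying notes these rest on mm10 and GENCODE M21; the aligner, the quantifier programs and their versions were not given in the sources used here. The authors' deposited transcript and gene tables hold expected counts (RSEM layout) or estimated counts (kallisto layout), TPM, posterior mean TPM and bounds of a TPM interval (used as a signal value, as deposited). RSEM and kallisto name column layouts only.

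From these, NMD shares of TPM were computed per gene, library and layout with Python 3.11.15, pandas 2.3.3 and NumPy 2.4.6; stop positions and 31-mers came from the GENCODE M21 annotation and transcript sequences. A gene counted at 10% or more had to reach it in all 4 values. No test was run, since there is 1 group. Structure code was checked on simulated transcripts. Named genes are the 12 with the highest mean share at 10% or more, up to 3 such genes per list (14 lists), the 5 widest gaps between layouts and between libraries, the 5 with the most NMD TPM, and 2 each side of the threshold. One gene that the rule takes is not reported here. All other genes named were chosen after their values were seen. The members and lists were chosen with earlier results of these data known. Median expected counts per gene were 3589.5 and 3553. Alternatives to the threshold, unit, denominator, layout and libraries are given at the end.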

Additional observations from a re-analysis of the deposited data

How the results depend on the processing

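As reported, 109 genes reached 10% in all 4 values, the pooled share was 13.5% and the median share 5.79% (RSEM layout, mean of both libraries). A gene minimum of 20 TPM gave 273 of 984 genes (27.7%, against 28.4% as reported) and a pooled share of 13.0%; a minimum of 100 TPM gave 43 of 152 genes (28.3%), 14.3% and a median of 5.11%. A share of counts gave a pooled 8.48% and a median of 2.91%. With only coding and NMD transcripts in the denominator these were 18.7% and 9.86%, and without NMD transcripts tagged incomplete 9.07% and 2.87%. Genes with whole expected counts gave a pooled 14.4%. A line of 20% left 49 genes, and the kallisto layout gave a median of 9.46%. Chosen after seeing the data, genes with at most 10% of 31-mers in other genes gave a pooled 14.03%, and leaving out Ltf 11.6%. Requiring 50 TPM without the NMD transcripts, also chosen after seeing the data, left 67 of 323 genes (20.7%), a pooled 11.1% and a median of 4.02%; this rule by its construction removes genes whose TPM is mostly NMD. The count of genes stayed within 1.5 times under the other settings, from 82 to 163, with 118 and 124 when a replicate was left out. Of 48 named genes, the kallisto layout moved 33 and counts moved 31 by more than the spread between libraries. The cause was not tested. No paired analysis was possible because there is 1 group.

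The limits are that 2 libraries, which share a donor identifier, give no test, that 98 genes have NMD transcripts with over 10% of their 31-mers in other genes, and that most NMD transcripts differ from others of their gene by little sequence, with a median of 122 and 118 expected counts per gene on NMD transcripts.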
